A study of Gallus gallus with 23 samples.

Results

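The genes described here are NTRK2, CBLB and SIRT2, 3 of the 6428 genes named on a spotted chicken cDNA array of 19200 spots. They were chosen by their measured log ratios, which had stood out as higher in livers of corticosterone-treated birds than in livers of vehicle birds, and were found by symbol. That difference therefore describes them and is no test of them. All 3 passed the filter of at least 3 values in each group, as did 9250 features in all (4836 named genes, the rest unnamed spots). Deposited values were read as log2 ratios of the RNA of 1 bird to a common pool of liver RNA from 6 control birds. The numerator and the log base are not given in the sources used here. If the pool was the numerator, every direction below turns round.

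The groups were CS+T3 (both hormones, 5 arrays), CS (corticosterone, the main glucocorticoid of birds, 600 µg per kg per day, 6 arrays), T3 (triiodothyronine, the active thyroid hormone, 192 µg per kg per day, 6 arrays) and VC (the solvent of DMSO and propylene glycol alone, 6 arrays). All birds were Ross x Cobb broiler cockerels that carried a minipump under the skin from 29 days of age and were sampled after 6 days of treatment. Each array was taken as 1 bird; pens, rooms, slides and scan dates of the arrays are not given in the sources used here, so no batch could be fitted. Whole liver was used, so that fewer cells of a type and less RNA per cell cannot be told apart.

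NTRK2 encodes TrkB, the receptor tyrosine kinase that binds brain-derived neurotrophic factor. Ligand binding activates the RAS, PI3-kinase and phospholipase C gamma routes, and the receptor is best known from neurons. CBLB is a RING-type ubiquitin ligase that tags activated tyrosine kinases and their adaptors for removal, known in mammals as a brake on T-cell activation. SIRT2 is an NAD-dependent deacetylase found mainly in the cytoplasm, whose known substrates include alpha-tubulin. Corticosterone and T3 both act through nuclear receptors that bind DNA, so a change of transcript level is the usual readout of either hormone.

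On the array, NTRK2 lay in block 29 at row 4 and column 3, and SIRT2 in the same block at row 6 and column 5. CBLB lay in block 33 at row 4 and column 4. Each of the 48 blocks holds 20 rows and 20 columns. After the realignment described below, NTRK2 and SIRT2 had a value on all 23 arrays at these spots, and CBLB on 21. CBLB had none for T3 replicate 1 and VC replicate 4, where the deposited positions held -0.70 and -0.17. SIRT2 also had a spot in block 46, row 8, column 1, which carried a value on 5 arrays and on 0 of the CS arrays. That spot read -0.11 and 0.08 in CS+T3 replicates 3 and 5, 0.11 in T3 replicate 2, and 0.16 and 0.14 in VC replicates 1 and 6. The main SIRT2 spot read 0.04 and 0.44, 0.28, and -0.09 and -0.03 in the same birds, and the 2 spots were averaged where both had a value.

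To check positions, block and row medians were taken off the values of each array. On 17 arrays these correlated across spots with the mean of the other arrays at r of 0.27 to 0.55. On 4 arrays (CS+T3 replicate 1, CS replicate 3, T3 replicate 3 and VC replicate 4) r was -0.04 to 0.01 in place. It was 0.25 to 0.40 once values were moved 4 to 14 spots later, over the spots given that lag. The r in place used all other arrays, and an r over part of the spots only those that fitted in place. They are therefore not like measures. The blank spots of these 4 arrays did not follow that move. They matched the blanks of other arrays at r of 0.79 to 0.84 in place and 0.05 to 0.21 at the lag. The cause of this was not tested. These 4 arrays and parts of CS+T3 replicate 2 and T3 replicate 1 were realigned before any comparison. T3 replicate 1 fitted the other arrays poorly even so, with r of 0.11 in place and 0.15 over the 11649 spots that were not moved. Those spots include NTRK2 (-0.88) and SIRT2 (-1.06), the lowest T3 values of both genes. Realignment moved CS replicate 3 most. It gave 1.11 for NTRK2, 0.85 for CBLB and 0.78 for SIRT2, where the deposited positions held 0.20, -0.14 and -0.09. The array medians lay between -0.05 and 0.03.

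NTRK2, the receptor, was higher in CS livers than in VC livers and lay near the pool in livers given both hormones. Its log2 ratios in the 5 CS+T3 livers were -0.49, 0.43, 0.19, -0.06 and 0.31. In CS livers the lowest was 0.35, the median 1.19 and the highest 1.78. T3 livers had a lowest value of -0.88, a median of 0.03 and a highest of 0.73, and VC livers had -0.86, -0.07 and 0.78. So 4 of the 6 CS livers lay above every VC liver, and CS replicates 4 and 6 (0.35 and 0.60) lay within the VC range. Of the 5 CS+T3 livers, 4 lay below every CS liver. Means were 0.08 ± 0.37 in CS+T3 (SD, n = 5), 1.08 ± 0.52 in CS, 0.02 ± 0.56 in T3 and -0.05 ± 0.56 in VC (SD, n = 6 each). CS was the highest of the 4 groups, and the means of the other groups differed from each other by less than 1 SD of any of them.

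CBLB, the ubiquitin ligase, reached the highest log2 ratios of the 3 genes in CS livers. Its log2 ratios were -0.11, 0.90, 0.54, 0.16 and 0.80 in the 5 CS+T3 livers. In CS livers the lowest was 0.85, the median 1.84 and the highest 2.25. The 5 T3 livers with a value had 0.41, -0.16, 0.17, 1.32 and 0.14, and the 5 VC livers with a value had 0.11, 0.22, 0.87, -0.46 and 0.27. Only the realigned CS replicate 3 (0.85) fell inside the VC range, just under VC replicate 3 (0.87), and the other 5 CS livers lay above every VC liver. T3 replicate 5 (1.32) was the highest liver outside the CS group. Group means were 0.46 ± 0.43 in CS+T3 (SD, n = 5), 1.68 ± 0.49 in CS (n = 6), 0.37 ± 0.57 in T3 (n = 5) and 0.20 ± 0.47 in VC (n = 5), so that the order was CS, then CS+T3, T3 and VC, the last 3 differing by less than their spread.

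SIRT2, the deacetylase, was the least variable of the 3 among CS livers. The 5 CS+T3 livers had log2 ratios of -0.39, 0.21, -0.04, -0.19 and 0.26. The lowest, median and highest were 0.57, 0.83 and 1.19 in CS livers, -1.06, -0.04 and 0.58 in T3 livers, and -0.73, 0.04 and 0.64 in VC livers. Again 4 of the 6 CS livers exceeded every VC liver, the exceptions being CS replicates 2 and 6, and all 5 CS+T3 livers lay below every CS liver. Means were -0.03 ± 0.27 in CS+T3 (SD, n = 5), 0.83 ± 0.23 in CS, -0.16 ± 0.60 in T3 and -0.02 ± 0.46 in VC (SD, n = 6 each). As for NTRK2, the groups other than CS could not be ordered beyond their spread.

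**Figure D1:**
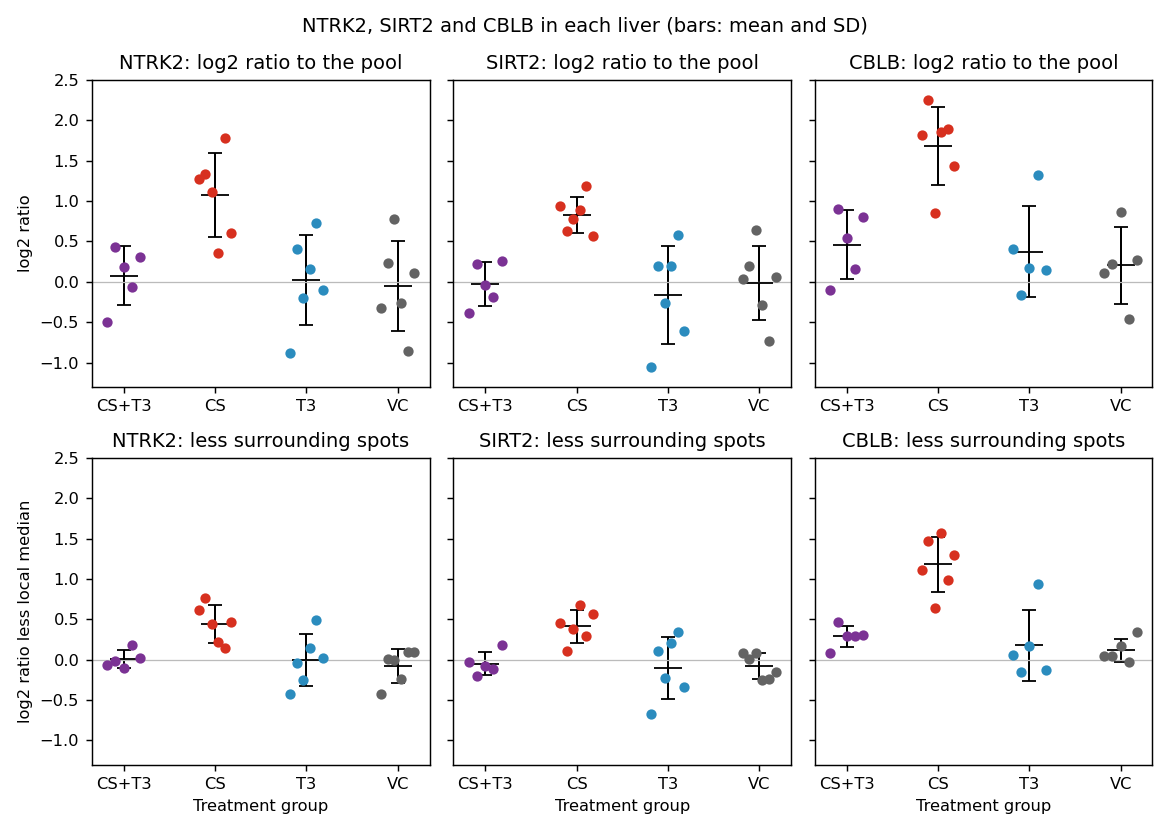
Log2 ratio of each gene to the pool (upper row) and the same less the median of the surrounding spots (lower row), with 1 point per liver and bars for the group mean and SD. CS livers are the highest group in every panel, and after subtraction all 6 CS points of each gene lie above every VC point.

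In the limma fit over all 23 arrays, the difference that chose the genes was 1.13 (SE 0.27) for NTRK2, 1.48 (SE 0.27) for CBLB and 0.85 (SE 0.23) for SIRT2 on the log2 scale, CS minus VC. As ratios these are 2.19, 2.79 and 1.80. No feature of the 9250 had a larger CS minus VC difference than CBLB, 6 had a larger one than NTRK2, and 39 a larger one than SIRT2. At an adjusted p under 0.05, 376 features (4.06%) differed between CS and VC, 91 of them (0.984%) higher in CS and 285 (3.08%) lower. Every CS array lay above every VC array for 136 features (1.47%), to which none of the 3 genes belongs before the spots around them are taken into account. With the positions as deposited, the differences were 0.95, 1.38 and 0.645. Without the 6 realigned arrays they were 1.08, 1.65 and 0.80.

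Whether T3 removes the CS difference was asked first by setting CS+T3 against CS. The fitted differences were -1.001 (SE 0.29) for NTRK2, -1.23 (SE 0.27) for CBLB and -0.86 (SE 0.24) for SIRT2. Because the genes were chosen for high CS values, a group set against the same CS arrays tends to be lower, and these values carry no test. Across all features, 239 (2.58%) differed in this comparison, 206 of them (2.23%) higher in CS+T3 and 33 (0.357%) lower, and every CS+T3 array lay below every CS array for 196 features (2.12%), SIRT2 being 1 of these.

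CS+T3 against T3 is the comparison of birds with and without corticosterone in which neither group chose the genes. Its differences and permutation tests use values of the CS+T3 and T3 arrays alone. The realignment of CS+T3 replicates 1 and 2 and of T3 replicates 1 and 3, however, drew on arrays of all groups. The limma SE, interval and p also draw on the spread of the choosing arrays, since the fit covers all 23. NTRK2, CBLB and SIRT2 showed no difference past the test in CS+T3 against T3. The log2 difference was 0.06 for NTRK2 (SE 0.29, 95% interval -0.54 to 0.65), 0.08 for CBLB (SE 0.28, -0.51 to 0.67) and 0.13 for SIRT2 (SE 0.24, -0.36 to 0.63), with limma's adjusted p of 0.998 for each. Two-sided exact permutation tests over the livers gave p = 0.851 for NTRK2 and p = 0.667 for SIRT2 (462 splits each, smallest possible p 0.00216), and p = 0.802 for CBLB (252 splits, smallest possible p 0.00794). Only 4 features (0.0432%) passed the limma test here, with 391 at an unadjusted p under 0.05. For each gene, 0 of the 5 CS+T3 livers lay above every T3 liver, a separation that 83 features (0.897%) showed. The signs of these small differences were not stable: all 3 were negative without the 6 realigned arrays (-0.15, -0.01 and -0.08). Without T3 replicate 1 the difference was -0.12 for NTRK2 and -0.05 for SIRT2.

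T3 livers were set against VC livers for the effect of T3 alone. T3 minus VC was 0.07 (SE 0.27) for NTRK2, 0.17 (SE 0.28) for CBLB and -0.14 (SE 0.23) for SIRT2. Leaving out 1 array turned each sign, with ranges of -0.088 to 0.25, -0.064 to 0.34 and -0.29 to 0.035, and without the 6 realigned arrays the differences were 0.31, 0.31 and 0.051. This comparison shares the VC arrays with the one that chose the genes and is given without a test. By limma 0 of the 9250 features (0%) passed in it, with 436 at an unadjusted p under 0.05. The CS difference without T3 exceeded that with T3 by 1.07 (SE 0.40) for NTRK2, 1.40 (SE 0.39) for CBLB and 0.71 (SE 0.33) for SIRT2, estimates that use the choosing arrays and have no p.

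**Figure D2:**
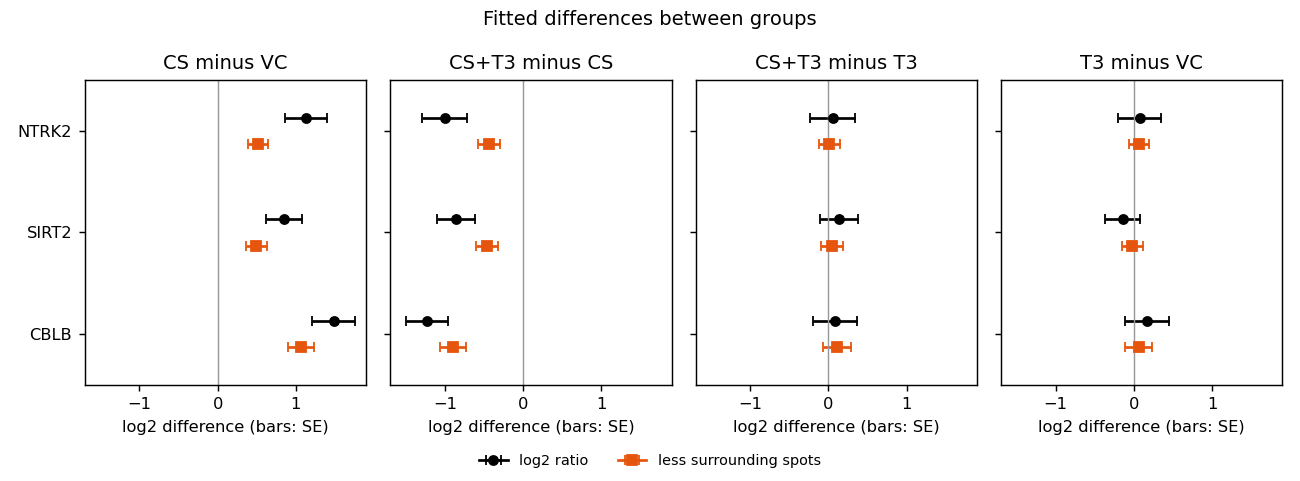
Fitted log2 differences of NTRK2, CBLB and SIRT2 between groups, with bars of 1 SE, for the log2 ratios (circles) and for values less the median of the surrounding spots (squares). CS minus VC is 1.13, 1.48 and 0.85 for the circles and 0.52, 1.07 and 0.49 for the squares, while CS+T3 minus T3 lies between 0.01 and 0.13 for both.

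The spots around the 3 genes, which carry other genes, were also higher on CS arrays. For each array, the median of the spots up to 3 rows and 3 columns away in the same block was taken, without the spots of the 3 genes. Around NTRK2 it averaged 0.07 ± 0.38 in CS+T3 (SD, n = 5), 0.64 ± 0.55 in CS, 0.03 ± 0.31 in T3 and 0.03 ± 0.56 in VC (SD, n = 6 each). The CS minus VC difference of these surroundings was 0.61, which is 54.0% of that of NTRK2 itself. Around CBLB it was 0.44 (29.7% of the difference of CBLB) and around SIRT2 it was 0.36 (42.1%). In CS+T3 minus CS the surroundings were lower too. The differences were -0.56 around NTRK2 (56.3% of its own), -0.33 around CBLB (27.2%) and -0.33 around SIRT2 (38.5%). For SIRT2 the surroundings are those of its main spot, set against the average of its spots. For CBLB the surroundings in VC include VC replicate 4 (-0.05), where CBLB itself had no value. CS replicate 5 shows how close gene and surroundings can be, with 1.78 for NTRK2 and 1.64 for the spots around it.

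Less these surroundings, the 3 genes were still higher in CS livers. NTRK2 then read -0.07, -0.01, -0.10, 0.19 and 0.01 in CS+T3 livers, a lowest of 0.14, a median of 0.46 and a highest of 0.76 in CS livers, -0.43, -0.01 and 0.50 in T3 livers, and -0.43, -0.0006 and 0.10 in VC livers. CBLB read 0.08, 0.46, 0.30, 0.29 and 0.30 in CS+T3 livers, 0.64, 1.21 and 1.56 (lowest, median, highest) in CS livers, 0.06, -0.15, 0.17, 0.93 and -0.12 in T3 livers, and 0.05, 0.04, 0.17, -0.03 and 0.34 in VC livers. SIRT2 read -0.03, -0.20, -0.08, -0.12 and 0.18 in CS+T3 livers, 0.10, 0.42 and 0.68 in CS livers, -0.68, -0.06 and 0.34 in T3 livers, and -0.25, -0.07 and 0.08 in VC livers. For SIRT2, the block 46 spot was taken less its own surroundings and averaged in on the 5 arrays where it had a value. All 6 CS livers now lay above every VC liver for each gene, a separation that 178 of 9233 features (1.93%) showed on this scale. Since these arrays chose the genes, the separation describes them and is no test. For CBLB, all 5 CS+T3 livers also lay below every CS liver, as for 243 features (2.63%), and 4 of 5 did for NTRK2 and for SIRT2.

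The CS minus VC differences of these subtracted values were 0.52 (SE 0.13) for NTRK2, 1.07 (SE 0.17) for CBLB and 0.49 (SE 0.13) for SIRT2, or ratios of 1.43, 2.09 and 1.41. CBLB thus kept the largest difference of the 3 on both scales, and NTRK2 lost most. CS+T3 minus CS was -0.44, -0.89 and -0.46 for NTRK2, CBLB and SIRT2. CS+T3 minus T3 was 0.01 (95% interval -0.27 to 0.29), 0.11 (-0.25 to 0.47) and 0.05 (-0.24 to 0.34), with limma adjusted p of 0.998, 0.966 and 0.98. On this scale 753 of 9233 features (8.16%) differed between CS and VC, 218 of them (2.36%) higher in CS. In CS+T3 minus CS 791 features (8.57%) did, and in CS+T3 minus T3 10 (0.108%). The subtraction was chosen after the data had been seen.

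**Figure D3:**
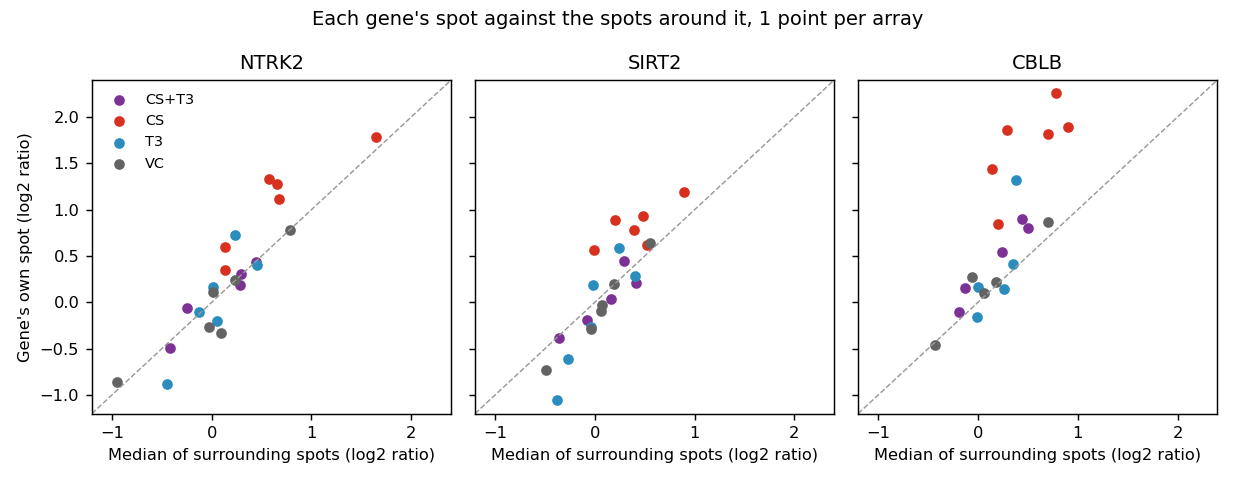
The log2 ratio at each gene's own spot (vertical axis) against the median log2 ratio of the spots around it (horizontal axis), with 1 point per array and a dashed line of equality. All CS points lie above the line, farthest for CBLB. The points of each other group lie on both sides of it, except those of CBLB in CS+T3, where all 5 lie above.

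Within groups, the 3 genes and their surroundings went up and down together from bird to bird. After the group means were removed, the value of NTRK2 correlated with that of its surroundings at Pearson r = 0.89 and Spearman rho = 0.82 over 23 birds (permutation p = 1e-05 for both, the smallest that these permutations can give). For SIRT2 the coefficients were 0.85 and 0.87 over 23 birds (permutation p = 1e-05 for both), and for CBLB 0.81 and 0.86 over 21 birds (permutation p = 2e-05 for both). Without the 2 birds farthest from the median, r was 0.88, 0.80 and 0.75. These are 3 of 9 such relations, with adjusted p of 3e-05 to 4.5e-05.

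The genes also followed each other, most closely the pair in the same block. NTRK2 and SIRT2 correlated at r = 0.85 and rho = 0.83 (adjusted permutation p of 3e-05 and 4.5e-05), NTRK2 and CBLB at 0.70 and 0.77 (0.00195 and 0.000495), and SIRT2 and CBLB at 0.72 and 0.75 (0.00169 and 0.000495). Once each was taken less its surroundings, the same pairs gave r of 0.43, 0.50 and 0.50 and rho of 0.29, 0.42 and 0.45, none of them past 0.05 (adjusted permutation p of 0.122, 0.094 and 0.094 for r). Without the 2 birds farthest from the median those r were -0.01, 0.31 and 0.16. The surroundings of NTRK2 and SIRT2 share spots, since both genes lie in block 29 within 3 rows and columns of each other. The medians taken off these 2 genes are therefore not independent, nor are the relations of the 2 genes to them.

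Higher CS values were unevenly spread over the array, and the 3 genes lie where they were dense. With each spot fitted alone, 116 of 11246 spots (1.03%) passed the test as higher in CS. Blocks 25, 29 and 33, picked after the data had been seen, held 51 of them (44.0%) on 6.70% of the spots, the spots of NTRK2, CBLB and SIRT2 included. In those blocks 6.77% of the spots passed, against 0.619% in the other 45 blocks. Block 33 had the highest median CS minus VC difference of all 48 blocks (0.25) and block 29 the next (0.23). Blocks 41 and 37 (0.17 each) followed, ahead of block 25 (0.15), so higher medians were not confined to the 3 blocks. Less the surroundings, 303 of 11221 spots (2.70%) passed, 49 of them in these 3 blocks. On that scale 6.51% of the spots in the 3 blocks passed, against 2.43% in the other 45 blocks.

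**Figure D4:**
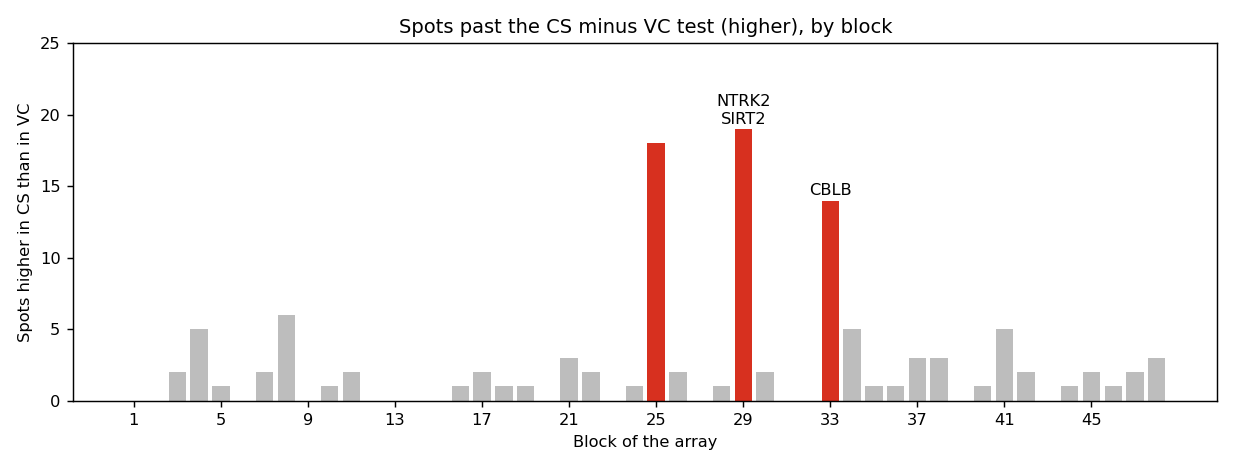
Number of spots past the limma test as higher in CS than in VC, for each of the 48 blocks, with blocks 25, 29 and 33 in red and the blocks of the 3 genes named. These 3 blocks hold 18, 19 and 14 such spots, and no other block holds more than 6.

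Within blocks 29 and 33 the difference was larger in the first columns, where the 3 genes lie. In columns 1 to 6 of block 29 the median CS minus VC difference was 0.42, with 84 of 92 spots above 0. In columns 1 to 6 of block 33 it was also 0.42, with 64 of 73 spots above 0. In columns 7 to 20 the medians were 0.16 and 0.18. These columns, too, were picked after the data had been seen. Against their neighbours in columns 1 to 6, 2 of 92 spots had a larger difference than NTRK2, 13 of 92 a larger one than the main SIRT2 spot (0.88), and 0 of 73 a larger one than CBLB. By this rank SIRT2 stood out least from its neighbours and CBLB most, whereas by the share of its difference that its surroundings showed, NTRK2 was closest to its own. The genes were chosen by this same CS minus VC difference, so their ranks and shares describe them and are no test. Whether the level of the surroundings adds to the readings of NTRK2, CBLB and SIRT2 on each array was not tested.

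**Figure D5:**
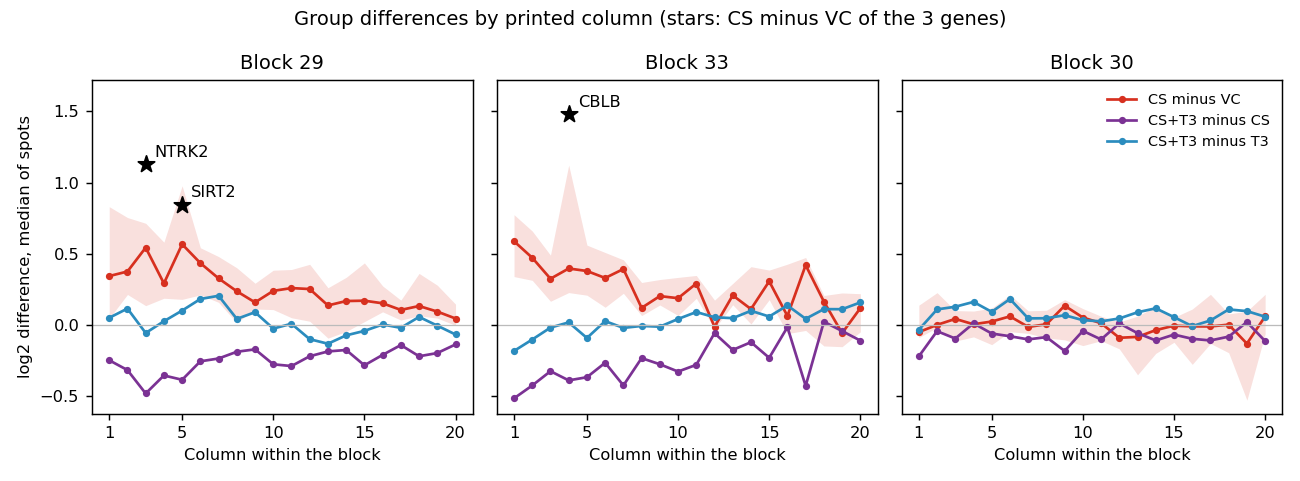
Median log2 difference of the spots in each column of blocks 29, 33 and 30, with a band from the lower to the upper quartile for CS minus VC and stars for the 3 genes. CS minus VC is larger in columns 1 to 6 than farther right in blocks 29 and 33 (medians of 0.42 against 0.16 and 0.18), and block 30, which holds none of the 3 genes, shows no such slope.

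The genes whose values over the 23 arrays were most like those of NTRK2, CBLB and SIRT2 are mostly printed in the same blocks. NTRK2 was most like CREM (r = 0.94 over 22 arrays), a cAMP-responsive transcription factor, then SIRT2 (0.92 over 23), DPY19L4 (0.91 over 21), TMPO (0.90 over 20), a protein of the nuclear lamina, and TXLNB (0.89 over 22). CBLB was most like MB21D2 (0.94 over 19), SIRT2 (0.87 over 21), NTRK2 (0.86 over 21), COX7C (0.86 over 18), a subunit of cytochrome c oxidase, and NUDCD3 (0.86 over 18). SIRT2 was most like NTRK2 (0.92 over 23), CTXN1 (0.88 over 22), CBLB (0.87 over 21), TMEM39A (0.87 over 23) and DPY19L4 (0.87 over 21). Every one of these genes has a spot in block 25, 29 or 33. Of the 50 spots most like each gene, 50 lay in those blocks for NTRK2, 43 for CBLB and 50 for SIRT2, where 6.70%, 6.53% and 6.70% of the eligible spots lie. Less the surroundings, 11, 5 and 8 did. These coefficients share the arrays and are descriptions.

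Among the relatives and partners of the 3 genes, 1 passed the test in CS minus VC, where 4.06% of all features did. The lists below hold none of the 3. Of 17 measured genes of neurotrophin receptor signalling, among them AKT1, MAP2K1 and PIK3R1, kinases and adaptors downstream of TrkB, 0 passed the limma test in CS minus VC, in CS+T3 minus CS or in CS+T3 minus T3. Less the surroundings, where 8.57% of all features passed in CS+T3 minus CS, 2 of the 17 were higher there, PIK3CB, a catalytic subunit of PI3-kinase (0.35, limma adjusted p = 0.0128), and NFKB1, a transcription factor (0.85, limma adjusted p = 0.012). The list's median CS minus VC log2 difference was 0.03, the same as the 0.03 of all features. No other NTRK gene and no neurotrophin was among the features tested. Of 16 sirtuins and genes of NAD metabolism 0 passed in any of these comparisons, with a median of -0.02. Less the surroundings, AFMID, an enzyme of tryptophan breakdown, was higher (0.59, limma adjusted p = 0.035) and PARP3, an ADP-ribosyltransferase, lower (-0.35, limma adjusted p = 0.0337) in CS+T3 minus CS. SIRT3, a mitochondrial deacetylase, had a CS minus VC difference of 0.12 (SE 0.10), and SIRT5, a mitochondrial deacylase, had -0.04 (SE 0.11). Of 9 other deacetylases, acetyltransferases and known SIRT2 substrates 0 passed, with a median of 0.16.

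The gene that passed was 1 of 15 measured CBL ligases and partners, and it went in the direction opposite to CBLB. BTK, a tyrosine kinase of B cells and myeloid cells, averaged 0.13 ± 0.18 in CS+T3 (SD, n = 4), -0.59 ± 0.17 in CS (n = 5), -0.13 ± 0.17 in T3 (n = 4) and 0.12 ± 0.27 in VC (n = 6). It fell by 0.71 in CS against VC (SE 0.13, limma adjusted p = 0.00356) and rose by 0.72 in CS+T3 against CS (SE 0.14, limma adjusted p = 0.0101). The second call was lost with positions as deposited (0.64) and with the replicate number as a block (0.72). Beside it, CYBB was the 1 of 5 measured leukocyte markers past the test, lower in CS, as 3.08% of all features were. The mean of the leukocyte markers was -0.47 to 0.02 on CS arrays and -0.12 to 0.01 on VC arrays. Less the surroundings, 2 of the 5 leukocyte markers were lower in CS than in VC, where 8.16% of all features passed. The part of these markers in the BTK result was not tested. CBLL1, a related RING protein, had a CS minus VC difference of 0.00 (SE 0.08). The list median was 0.00. Less the surroundings, 3 genes of this list, BTK among them, were higher and 1 was lower in CS+T3 minus CS, where 8.57% of all features passed. In CS minus VC, where 8.16% did, BTK alone passed.

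Genes of the glucocorticoid response were read in the same birds. Of 19 measured, 1 rose and 2 fell in CS against VC, where 0.984% of all features were higher and 3.08% lower. The list's median difference was 0.01, against 0.03 for all features. GPT2, a mitochondrial alanine aminotransferase printed in block 40, had means of 1.30 ± 0.31 in CS+T3 (SD, n = 4), 1.02 ± 0.35 in CS, -0.36 ± 0.21 in T3 and 0.20 ± 0.30 in VC (SD, n = 6 each). It rose by 0.82 in CS against VC (SE 0.16, limma adjusted p = 0.00519) and by 1.66 in CS+T3 against T3 (SE 0.18, limma adjusted p = 4.99e-05). Its values less the surroundings differed by 0.83 and 1.65. Both calls were lost with positions as deposited (0.45 and 1.03). The call in CS against VC was also lost with quantile normalization (0.72, limma adjusted p = 0.0755). In CS+T3 against T3, GPT2 was thus among the 4 features past the test, while NTRK2, CBLB and SIRT2 differed by 0.06, 0.08 and 0.13. Without the 6 realigned arrays, 0 of 8599 features passed in that comparison, and GPT2 was not among those tested. PCK2, the mitochondrial phosphoenolpyruvate carboxykinase, fell by 0.52, and HSD11B1B, a hydroxysteroid dehydrogenase, fell by 1.94 in CS against VC (limma adjusted p of 0.0268 and 0.00962). The HSD11B1B call was lost with quantile normalization (-1.05, limma adjusted p = 0.311) and with positions as deposited (-1.73, limma adjusted p = 0.0594).

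In CS+T3 against CS, 5 of the 19 rose and 0 fell, where 2.23% of all features were higher and 0.357% lower, and the list's median was 0.15 against -0.04 for all features. These were TAT, tyrosine aminotransferase (0.85), PCK2 (0.82), HSD11B1B (1.77), the transcription factor CEBPB (0.67) and the chaperone HSPA8 (0.66), with limma adjusted p of 0.00286 to 0.0438. Of 39 other settings, 16 ended the call of CEBPB, 11 that of HSD11B1B, 7 that of HSPA8 and 2 each those of TAT and PCK2, and 9 ended that of PCK2 in CS minus VC.

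Marker genes were read for the cell types that whole liver holds. A ratio to a pool gives no level, so it cannot be said which markers are absent. In CS minus VC 4.06% of all features passed the test. Of 6 measured neuron and glia markers 0 passed in it, and their array means were -0.09 to 0.16 in CS and -0.19 to 0.09 in VC. Less the surroundings, where 8.16% of all features passed in CS minus VC and 8.57% in CS+T3 minus CS, 1 of the 6 passed. This was NEFL, a neurofilament protein, higher in CS than in VC (0.35, limma adjusted p = 0.0234). It was lower in CS+T3 than in CS (-0.34, limma adjusted p = 0.0298). The list did not move as 1: in CS minus VC on this scale 3 of the 6 lay above 0. Their median was -0.01, and MBP of the same list had -0.35. Of 5 hepatocyte markers 2 passed, TTR and FGB, both lower in CS, with array means of -1.39 to -0.43 in CS and -0.18 to 0.21 in VC. Of 5 endothelial markers 0 passed, with array means of 0.18 to 0.68 in CS and -0.02 to 0.24 in VC. The mean of the hepatocyte markers thus lay lower on every CS array than on any VC array, while that of the endothelial markers overlapped. Taken singly, only TTR was lower on every CS array with a value than on any VC array. The other hepatocyte markers overlapped, APOA1 for example with -0.28 to 0.44 in CS and -0.22 to 0.84 in VC. Of 7 stellate cell markers and 2 bile duct markers 0 passed, and of 3 erythrocyte markers 1 did, higher in CS. This was SLC4A1, with 0.36 in CS minus VC and -0.40 in CS+T3 minus CS (limma adjusted p of 0.037 and 0.0323). In the latter 2.58% of all features passed. HBA1 and HBBA of the same list passed in neither. Less the surroundings, SLC4A1 passed in both as well. On that scale KDR (endothelium) was lower in CS+T3 than in CS, and COL3A1 (stellate cell) and CYBB (leukocyte) were higher. The markers named here, and PIK3CB, NFKB1, AFMID and PARP3, were picked out after their values had been seen. The part of these cell types in the differences of NTRK2, CBLB and SIRT2 was not tested.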

How the data were processed

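Each array compared liver RNA of 1 bird with a pool of control liver RNA in the other dye, per the labels' protocols. The authors deposited 1 log ratio per spot, taken here as log2 from their range of -3.86 to 4.05; the deposited background correction, normalization, spot filter and log base are not given in the sources used here. Arrays held 8925 to 13721 values. The number of arrays limits the precision.

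Spots were named from the platform annotation (10601 with 1 symbol, 8599 with none; 10455 matched by Entrez ID, 146 not). Values of 6 arrays were realigned along printing order (lags up to 40 spots). On these arrays values were dropped at spots blank as deposited, in blocks where the lag changed and in parts with r under 0.1. This left 6348 to 10816 values on them. Spots of a gene were averaged. The model was run in limma (version 3.58.1, under R 4.3.3) with 1 mean per group across all 23 arrays and moderated variances, for features that had 3 or more values in every group. Adjusted p is Benjamini-Hochberg's over all of them, with 0.05 as threshold. The code was tested on simulated data. Exact permutation tests enumerated all splits; correlations used 1e+05 permutations.

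The 3 genes and the gene lists were chosen with earlier results of these data known. Named were the 3 genes, the 5 genes most correlated with each (at least 18 arrays), list genes past the test, and measured relatives. The same replicate number did not pair birds: same-numbered arrays correlated at a median r of -0.02 (33 pairs, 8 over 0.1). Alternatives covered alignment, normalization, weights, filters, spot averaging and single arrays; subtraction of local (within 3, 2 or 5 rows and columns, at least 8 values) or block medians was added after the data were seen. Sequences are not used here.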

Additional observations from a re-analysis of the deposited data

How the results depend on the processing

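CS minus VC, CS+T3 minus CS and the difference of the CS effects kept their direction for NTRK2, CBLB and SIRT2 under all of their 38 to 40 alternatives, and CS+T3 minus T3 passed the test under none of its 40 or 41. All of these but CS+T3 minus T3 use arrays that chose the genes, so the kept directions describe the genes and are no test. The sign of CS+T3 minus T3 turned for NTRK2 without the 6 realigned arrays (-0.15), with quantile normalization (-0.038) and less the median within 5 rows and columns (-0.022), and for SIRT2 (-0.079) and CBLB (-0.0093) without the 6 arrays. Leaving out 1 array at a time gave -0.12 to 0.20 for NTRK2, -0.046 to 0.28 for SIRT2 and -0.050 to 0.32 for CBLB. Local subtraction moved sizes by its construction. Within 3 rows and columns, NTRK2 had 0.52 in CS minus VC, -0.44 in CS+T3 minus CS and 0.51 in the difference of CS effects. Within 2 rows and columns, CS minus VC was 0.55 for NTRK2, 0.31 for SIRT2 and 0.93 for CBLB, CS+T3 minus CS was -0.31 for SIRT2, and the difference of CS effects was 0.51, 0.28 and 0.87. Counts of features past the test varied most. For CS minus VC (376) there were 72 with values as deposited, 186 without the 4 and 237 without the 6 realigned arrays, 146 with quantile normalization, 931 with array weights, 753, 600 and 787 less the median within 3, 2 and 5 rows and columns, 608 less the block median, and 212 to 595 without 1 array (CS replicate 4 and CS replicate 5; 244 without VC replicate 2). For CS+T3 minus CS (239) the same settings gave 5, 63, 26, 92, 665, 791, 666, 912, 668 and 93 to 671 (CS replicates 4 and 5; 121 without CS replicate 6 and 102, 148 and 127 without CS+T3 replicates 1, 4 and 5). For CS+T3 minus T3 (4) there was 1 with values as deposited, 0 without the 6 arrays (limma, 215 at an unadjusted p under 0.05), 9 with array weights, 10 and 11 less the median within 3 and 5 rows and columns, 11 less the block median, and 4 to 8 without 1 array (8 without CS+T3 replicate 5, 7 without T3 replicate 6). The replicate block, fitted although same-numbered birds share only a number, gave 241 in CS minus VC and 79 in CS+T3 minus CS and ended the CS+T3 minus CS calls of BTK, CEBPB and HSD11B1B. The cause was not tested where no construction is named.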
